A study of Mus musculus with 4 samples.

Results

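Open chromatin was described at 10 mouse genes whose products remove or add methyl groups on lysine 9 of histone H3 (H3K9). The genes were the demethylase genes Kdm3a (named Jmjd1a in the labels), Kdm3b, Jmjd1c, Kdm4a, Kdm4b and Kdm4c, and the methyltransferase genes Ehmt2, Suv39h1, Suv39h2 and Setdb1. They were chosen by function, out of 22225 annotated protein-coding genes. Every ATAC-seq peak with its summit within 50 kb of an annotated transcription start site (TSS) of 1 of these genes was taken, which gave 302 of the 239709 peaks in the 4 lists. ATAC-seq marks DNA that a transposase can reach in the nucleus, and a peak is a stretch where insertions are dense. The nuclei came from im-scWAT cells, immortalized mouse preadipocytes made from the stromal vascular fraction of subcutaneous white adipose tissue. WT cells were Jmjd1a +/+ and HY cells were Jmjd1a HY/HY, with a tyrosine codon in place of a histidine codon in both alleles of the demethylase domain. Nuclei were taken before differentiation (D0) and at day 8 (D8), after 2 days with indomethacin, dexamethasone, 3-isobutyl-1-methylxanthine, rosiglitazone, insulin and T3 and 6 further days with insulin, T3 and rosiglitazone. The comparisons ask whether chromatin at the H3K9 enzyme genes changed with beige differentiation, and whether the other 9 genes were more open in cells with catalytically inactive JMJD1A.

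Methylated H3K9 is bound by HP1 proteins and marks closed chromatin. KDM3 enzymes remove the mono- and dimethyl marks and KDM4 enzymes the tri- and dimethyl marks. G9a, the product of Ehmt2, writes mono- and dimethylation mainly in gene-rich chromatin, the SUV39H enzymes write trimethylation at heterochromatin, and SETDB1 writes it at silenced repeats and genes. In adipose tissue, JMJD1A is known for demethylating H3K9 at thermogenic genes and activating them, and G9a for silencing Pparg, a main adipocyte regulator. ATAC-seq reads accessibility, not the mark, the transcript or the enzyme.

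Each group had a single library, so each difference is between libraries, no test across samples was run, and all intervals (95%) cover counting error only. The value compared is the pileup, the number of overlapping tags at a peak's summit. Relative depth, read from each library's genome-wide background rate (0.659 and 0.531 in WT at D0 and D8, 0.708 and 0.494 in HY), was used to scale every ratio of pileups. A peak at this rate needed a pileup of 5 tags, or of 4 in HY D8. All 6 adipocyte marker genes had a promoter peak in both D8 libraries and 2 of 6 in both D0 libraries, and their summed pileup was 31, 239, 43 and 249 in WT D0, WT D8, HY D0 and HY D8. Of 5 preadipocyte markers, 5, 2, 4 and 2 had one, with summed pileups of 145, 55, 164 and 54. Of 5 beige markers, 2, 3, 3 and 3 had one (summed 51, 70, 78 and 79), and the promoters of Ucp1 and Dio2 had none in any library. Endothelial markers had promoter peaks in 2 and 1 of 3 genes at D0 in WT and HY (summed 32 and 19) and in 0 at D8. The 3 macrophage, 2 muscle and 2 epithelial markers had 0 in all libraries. A bulk library cannot tell a change in every cell from a change in the share of cells of a type. The lists held 1, 1, 7 and 6 peaks on chromosome Y, and a difference between the WT and HY cultures other than the labelled allele cannot be told apart from the genotype.

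The mutated codon lies far from any peak. On mm9 (NCBIM37), Kdm3a spans chr6:71538968-71582899 on the minus strand, and the mutated histidine codon is at chr6:71542140-71542142, in exon 23 of 27 of the transcript Kdm3a-201 and exon 22 of 26 of Kdm3a-203. It is shown on the reference with the rest of that exon (chr6:71542067-71542186, minus strand), with the histidine codon in capitals, since it is the labelled difference between the genotypes.
Kdm3a exon 23: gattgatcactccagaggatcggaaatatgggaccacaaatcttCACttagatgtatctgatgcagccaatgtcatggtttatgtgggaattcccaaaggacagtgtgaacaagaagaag
The reference codon reads His. The nearest summit lay 24353 and 24474 bp away in the D0 libraries of WT and HY, and 36365 and 36399 bp away at D8, so no peak overlapped this exon.

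The promoters that carry the results are printed from the same build, on the strand of the gene. Each runs from 100 bases before the summit to 100 bases after it or up to the TSS, and the Jmjd1c stretch includes the TSS base. Capitals mark matches to any of 12 short motifs searched on both strands. Kdm3a is shown as the mutated gene (chr6:71582900-71583088, minus strand), Kdm4b as the most open promoter of the set (chr17:56465136-56465336, plus strand) and Kdm4c for its wide peak (chr4:73897684-73897839, plus strand). The internal Jmjd1c promoter (chr10:66648329-66648497, plus strand) is shown because it gave the counted ratio of Jmjd1c, the only member past 1.5 fold between the genotypes.
Kdm3a promoter: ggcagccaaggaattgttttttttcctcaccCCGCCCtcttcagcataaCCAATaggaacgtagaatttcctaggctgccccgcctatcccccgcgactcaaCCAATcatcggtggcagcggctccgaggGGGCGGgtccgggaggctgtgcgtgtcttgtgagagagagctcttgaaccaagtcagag
Kdm4b promoter: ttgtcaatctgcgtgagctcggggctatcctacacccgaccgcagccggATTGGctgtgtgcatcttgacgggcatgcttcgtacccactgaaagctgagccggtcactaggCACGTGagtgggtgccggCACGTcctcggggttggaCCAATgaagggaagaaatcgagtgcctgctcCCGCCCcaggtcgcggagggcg
Kdm4c promoter: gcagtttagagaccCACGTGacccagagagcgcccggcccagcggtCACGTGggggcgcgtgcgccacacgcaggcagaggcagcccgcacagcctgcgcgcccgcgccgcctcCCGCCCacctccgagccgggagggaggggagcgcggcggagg
Jmjd1c internal promoter: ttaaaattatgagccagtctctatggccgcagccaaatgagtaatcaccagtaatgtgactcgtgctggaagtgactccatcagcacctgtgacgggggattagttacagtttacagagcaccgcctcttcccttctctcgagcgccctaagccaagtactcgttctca
The Kdm3a stretch held the Sp/KLF box GGGCGG and the NF-Y box CCAAT, each at 2 places. Kdm4b held CCAAT at 2 places, 1 GGGCGG and 1 E-box CACGTG, and Kdm4c held 2 E-boxes and 1 GGGCGG. The core of the hypoxia-response element, ACGTG, lies inside each CACGTG on both strands and therefore overlaps every E-box, and the Kdm4b stretch held 1 more ACGTG, on the other strand and outside the E-box. None of the 12 motifs occurred in the Jmjd1c stretch. Over windows from 250 bases before to 50 after the TSS, GGGCGG occurred in 8 of 10 members (67.1% of 12850 protein-coding promoters with a peak), CCAAT in 5 (38.2%), ACGTG in 4 (25.6%) and CACGTG in 3 (9.81%). TTNCNNAA, a loose C/EBP pattern, occurred in 3 (28.3%), and TGACGTCA (3.42%), TGANTCA (5.11%) and CCCNNGGG (19.1%) in 1 each. The ETS site CCGGAAGT (8.09%), NRF1 GCGCATGCG (3.4%), the nuclear receptor half-site AGGTCA (11.1%) and E2F TTTCCCGC (2.09%) were in 0. The members' windows had a median GC content of 63.7%, against 62.3% over all these promoters, and Jmjd1c was the lowest at 48.0%. A match is a description of letters only.

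All 10 members had an open promoter in every library, but Kdm4c passed the promoter rule only in HY D8. By that rule (the middle of a peak no more than 1000 bp before or 100 bp after a TSS), 9, 9, 9 and 10 members had a promoter peak in WT D0, WT D8, HY D0 and HY D8, against 50.1%, 48.4%, 49.8% and 48.6% of all protein-coding genes. At Kdm4c a wide region over the TSS (chr4:73897343-73898638) had pileups of 40, 48, 64 and 51 in the same order, and the peak's centre lay past the window in the first 3. The median promoter pileup of the members that passed was 41, 32, 45 and 38, against 35, 28, 40 and 28 over all promoters with a peak.

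**Figure D1:**
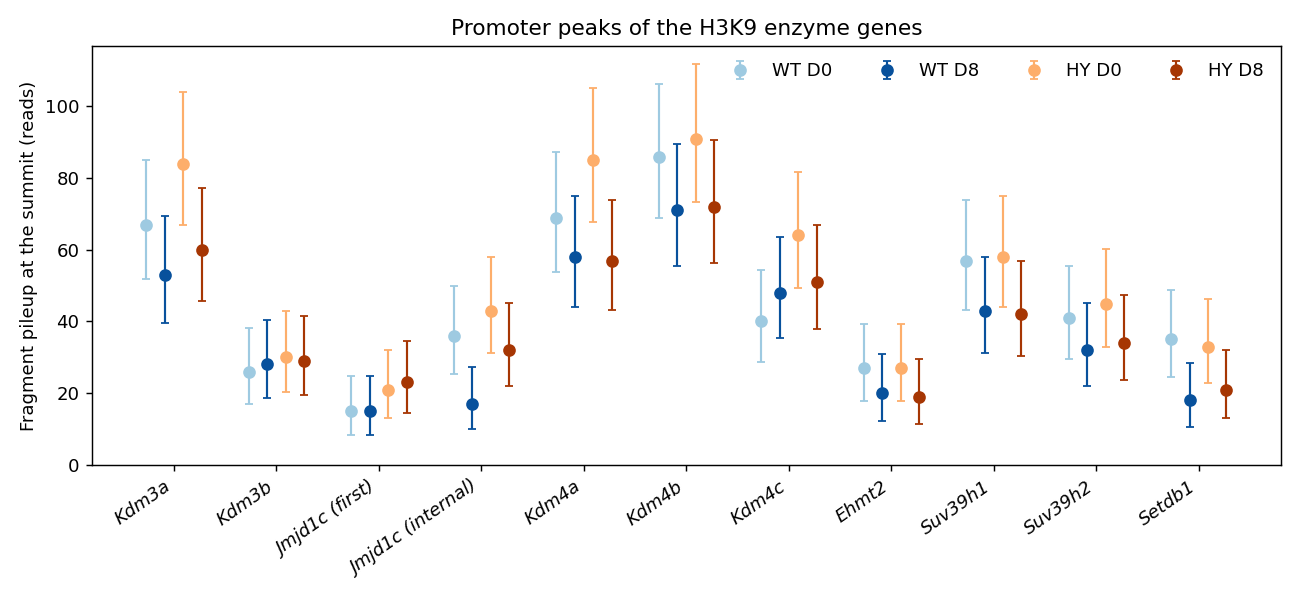
Summit pileup (tags, vertical axis) at the promoter region of each member in the 4 libraries, with exact Poisson 95% intervals for counting error and no scaling for depth. Jmjd1c has its first and its most open internal promoter, and at the latter WT D8 (17) is under HY D8 (32).

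Among the H3K9me1/2 demethylase genes, Kdm3a had the most open promoter. WT cells gave pileups of 67 at D0 and 53 at D8, and HY cells gave 84 and 60. In the same order these are 102, 99.9, 119 and 121 times the background rates of the libraries and lie between the percentiles 90.2 and 98.2 of all promoters. The HY libraries were the higher at both days, by ratios of 1.17 (interval 0.837 to 1.63) at D0 and 1.22 (0.826 to 1.79) at D8, both within counting error. The promoter of the gene that carries the mutation was open in all 4 libraries. Kdm3b, a close relative that acts on the same marks, had pileups of 26, 28, 30 and 29. Scaled by depth, its D8 promoter was 1.34 times (0.755 to 2.37) the D0 promoter in WT and 1.38 times (0.802 to 2.39) in HY, higher than 89.5% and 90.6% of promoters. Neither ratio passed 1.5 fold, and the HY/WT ratio was 1.07 at D0 and 1.11 at D8.

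Jmjd1c, the third member of the KDM3 family, was the exception among the promoters. Its first promoter, inside a Reep3 intron and close to a Reep3 promoter region, had pileups of 15, 15, 21 and 23 in WT D0, WT D8, HY D0 and HY D8. The internal promoter at chr10:66648279-66648854, where a shorter coding transcript starts, had 36, 17, 43 and 32, or 54.6, 32.0, 60.8 and 64.8 times the background rates. WT D8 was the low library at this promoter, which was the most open one of the gene in every library. A peak near a further internal start (chr10:66589049-66589566) had 18, 10, 17 and 14, with an HY/WT ratio of 1.5 (0.621 to 3.78) at D8. The WT D8/D0 ratio was 0.586 (0.309 to 1.07), whereas the HY ratio was 1.07 (0.653 to 1.72). Between the genotypes HY was 1.11 times WT at D0 (0.698 to 1.78) and 2.02 times at D8 (1.09 to 3.88), which is higher than 99.1% of promoters. The interval at D8 does not reach 1, but it holds 1.11, the median of all promoters at D8. Divided by that median, the ratio was 1.82. It is 1 of 36 ratios computed over the members and carries no correction. The ratio of the day effects, HY over WT, was 1.82 with an interval of 0.871 to 3.8, which holds 1. With the authors' fold over local background in place of the pileup, HY/WT at D8 was 1.52, and the WT D8/D0 ratio, 0.683, was no longer past 1.5 fold.

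The KDM4 genes, which act on H3K9me3, included the most accessible promoter of the set. Kdm4b had pileups of 86, 71, 91 and 72 in WT D0, WT D8, HY D0 and HY D8, at or above the 98.7th percentile in all 4. Kdm4a had 69, 58, 85 and 57. Kdm4b ratios were 1.02 and 1.13 for D8/D0 in WT and HY, and 0.985 and 1.09 for HY/WT at D0 and D8. The 4 Kdm4a ratios ran from 0.96 to 1.15. Neither promoter moved by 1.5 fold in any comparison. The Kdm4c region gave 40 tags in WT D0 and 64 in HY D0, a ratio of 1.49 (0.988 to 2.27), and its HY/WT ratio at D8 was 1.14 (0.754 to 1.73). For the WT libraries D8/D0 was 1.49 (0.959 to 2.33), and for the HY libraries 1.14 (0.774 to 1.67).

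Of the methyltransferase genes, Ehmt2 had the least open promoter in WT D0, HY D0 and HY D8, with pileups of 27, 20, 27 and 19, whereas in WT D8 that of Setdb1 was lower. The Ehmt2 promoter overlaps that of the complement gene C2. Suv39h1, on the X chromosome, had 57, 43, 58 and 42, and Suv39h2 had 41, 32, 45 and 34. For these 3 genes the D8/D0 and HY/WT ratios lay between 0.919 and 1.14. Setdb1 had 35, 18, 33 and 21. Its promoter was lower at D8 in WT, with a ratio of 0.638 (0.34 to 1.16), and 0.911 (0.501 to 1.62) in HY. By the authors' fold the WT ratio was 0.759, not past 1.5 fold. The ratio of its day effects was 1.43 (0.649 to 3.14), an interval that holds 1.

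Counted over the 9 members with a promoter peak in all libraries, 0 were at least 1.5 fold higher at D8 than at D0 in WT (5.66% of all promoters were) and 2 were at least 1.5 fold lower (Jmjd1c and Setdb1, against 12.5%). In HY, 0 were higher (5.96%) and 0 lower (12.4%). The median D8/D0 ratio of the members was 0.969 in WT and 1.04 in HY, beside 0.983 and 1.03 over all promoters. The marker promoters of adipocytes and preadipocytes moved with the day as given above, and their part in these ratios was not tested. Between the genotypes at D0, 0 members were higher in HY (5.42%) and 0 lower (2.25%), with a median of 1.02 beside 1.06. At D8, 1 was higher in HY (Jmjd1c, against 7.01%) and 0 were lower (1.67%). All 9 ratios at D8 were above 1, but so was the median of all promoters, 1.11, a shift of 0.15 on the log2 scale. The members' median was also 1.11, and 5 of 9 lay above that of all promoters. Among the 8 other genes than Kdm3a that could be compared at D8, Jmjd1c was the only one at least 1.5 fold higher in HY.

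**Figure D2:**
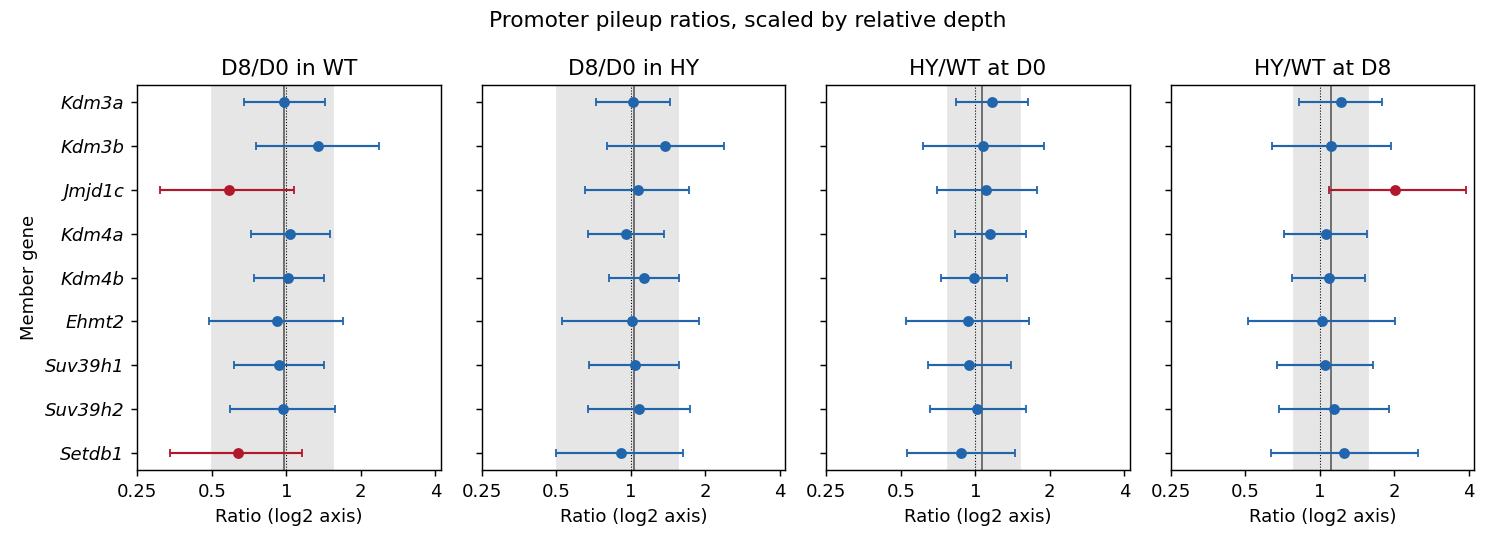
Ratio of promoter pileups scaled by relative depth (log2 axis) for 9 members in the 4 comparisons, with exact 95% intervals for counting error. The vertical grey line is the median and the grey band the 5th to 95th percentile of all promoters, and red points are past 1.5 fold: Jmjd1c at 0.586 and Setdb1 at 0.638 in WT, and Jmjd1c at 2.02 between genotypes at D8.

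The wider H3K9 pathway was read from 20 further genes (other writers, their partners, other demethylases and HP1-type readers), of which 17, 18, 18 and 16 had a promoter peak. In WT, 3 of 17 were at least 1.5 fold higher at D8 (Prdm16, Kdm1a and Jhdm1d) and 0 lower, against the 5.66% and 12.5% above. In HY, 2 of 15 were higher (Wiz and Jhdm1d, against 5.96% of all promoters) and 1 lower (Zfp644, against 12.4%). Only Jhdm1d, a demethylase of H3K9me2 and H3K27me2, passed in the same direction in both genotypes, with pileups of 12, 15, 17 and 18 and a D8/D0 ratio of 1.55 (interval 0.678 to 3.63) for the WT libraries and of 1.52 (0.737 to 3.13) for the HY libraries. Both intervals hold 1. By the authors' fold most of these day calls were lost. In WT only Kdm1a stayed past 1.5 fold (1.73), while Jhdm1d was at 1.05 and Prdm16 turned to 0.934. In HY, Jhdm1d was at 0.944, Wiz at 1.12 and Zfp644 at 0.966, and the 1 gene lower by that measure was Prdm16 (0.482). Between the genotypes, 2 of 17 were higher in HY at D0 (Prdm16 and Trim28, against 5.42%) and 0 lower (2.25%), and at D8 0 of 16 were higher (7.01%) and 0 lower (1.67%). Prdm16, the beige and brown fat determination factor, had pileups of 7, 11, 19 and 12, and the HY/WT ratio at D0 was 2.53 (1.02 to 7.11). Trim28, the corepressor that recruits SETDB1, had 20 tags at D0 and 23 at D8 in WT and 42 at D0 in HY, with a ratio of 1.96 (1.12 to 3.52) at D0. Of these genes only Jhdm1d was named by its pattern across comparisons, and the others were picked after their values had been seen.

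Beyond promoters, the members differed widely in how many peaks surrounded them. WT D0 had 76 peaks near members out of 71523 in its list (0.106%), WT D8 74 of 41228 (0.179%), HY D0 87 of 77994 (0.112%) and HY D8 65 of 48964 (0.133%). Of the 302, 50 were at a member's own promoter, 77 at the promoter of another protein-coding gene, 71 inside a member, 65 inside another gene and 39 between genes. Jmjd1c had 19, 19, 19 and 20 peaks in WT D0, WT D8, HY D0 and HY D8 and Ehmt2 had 16, 12, 20 and 9, while Kdm3a had 3, 2, 4 and 2 and Kdm4c 1, 3, 2 and 3. The window widens with the span of a gene's annotated start sites, which was 143 kb for Jmjd1c, 67.9 kb for Kdm4b, 23.9 kb for Kdm3a and 12.5 kb for Ehmt2. Ehmt2 and Kdm4b also lie among close neighbours such as Neu1, Hspa1b and Skiv2l, or Uhrf1, Plin3 and Ticam1, whose promoters supply many of these peaks.

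By the 50% overlap rule, 17 of 74 WT D8 peaks (23.0%, exact interval 14.0 to 34.2) had no counterpart at D0, against 25.8% of all peaks near protein-coding genes. In HY, 14 of 65 (21.5%, 12.3 to 33.5) had none, against 26.6%. The same 6 members held them in both genotypes, namely Kdm3b, Jmjd1c, Kdm4b, Kdm4c, Ehmt2 and Setdb1, whereas Kdm3a, Kdm4a, Suv39h1 and Suv39h2 had 0 (43.7% of protein-coding genes had such a peak in WT and 48.0% in HY). D0 peaks without a D8 counterpart were 44 of 76 in WT (57.9%, against 70.3%) and 53 of 87 in HY (60.9%, against 68.9%). They were near 9 members in WT and 10 in HY, with 80.3% and 82.0% of all genes having one. The D0 lists were the longer ones. With lists of equal length, 24 D0 peaks in WT and 22 in HY had no D8 counterpart, and 23 and 16 D8 peaks had no D0 counterpart. D8 peaks without a D0 counterpart, in WT and HY, were 43 and 32 when 50% of both peaks had to overlap. With -log10 q of at least 5 in both lists they were 8 and 9. The specific peaks were the weaker ones: in WT D8 their median pileup was 10.0, against 20 for shared peaks. D0 peaks were also wider, and only 28 of the 44 and 41 of the 53 lay in a region with no D8 peak touching it in that genotype. Between the genotypes, HY-specific peaks were 28 of 87 at D0 (32.2%, against 32.4%) and 18 of 65 at D8 (27.7%, against 37.1%). WT-specific peaks were 13 of 76 at D0 (17.1%, against 19.1%) and 13 of 74 at D8 (17.6%, against 17.8%). All 8 shares lay below those of all peaks near protein-coding genes. Only for the WT D0 peaks without a D8 counterpart did the exact interval (46.0 to 69.1) miss that share.

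Merging the lists gave 114 regions near members. Of these, 43 were open in all 4 libraries (37.7%, against 28.0% of all regions), 8 at D8 only in both genotypes (7.02%, against 6.1%) and 18 at D0 only in both (15.8%, against 22.7%). With lists of equal length, 11 were open at D8 only and 7 at D0 only. No region was open in both HY libraries and neither WT library (0.926%), and 1 was open in both WT libraries alone (0.299%). That region lies at chr10:66510771-66510943 in a Reep3 intron, 48029 bp before the first Jmjd1c TSS, with a pileup of 8 in each WT library, close to the lowest that could be called. In these lists no site near the 10 genes had a peak in HY alone at both days.

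**Figure D3:**
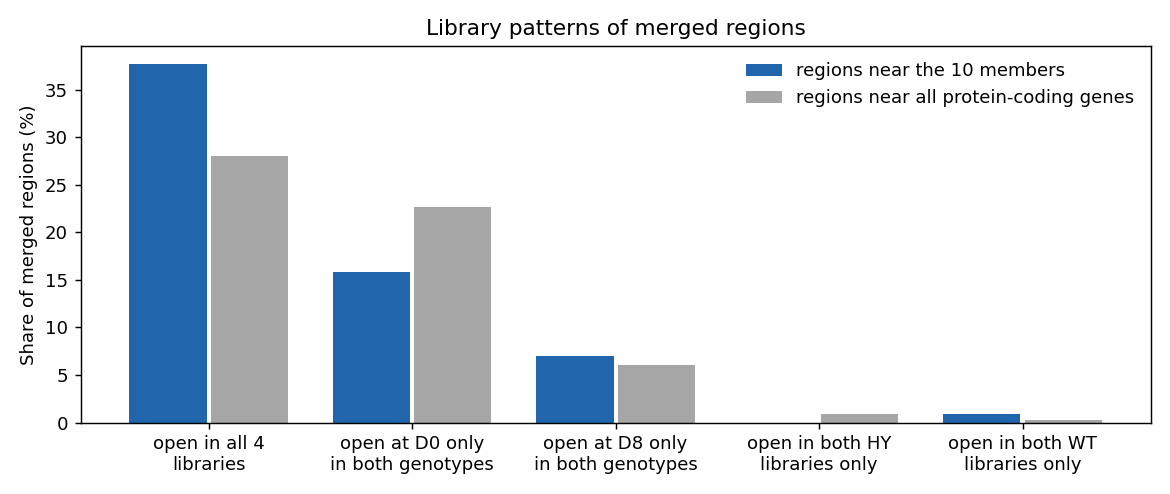
Share of merged regions (percent) by the libraries that have a peak in them, for the 114 regions near the members (blue) and the 75574 near all protein-coding genes (grey). The members had more regions open in all 4 libraries (37.7% against 28.0%) and fewer at D0 only (15.8% against 22.7%), and 0 regions open in HY alone at both days.

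Of the 8 regions open at D8 only, 2 were promoters of other genes. The Cfb promoter in the Ehmt2 window was at 15 tags in WT and 13 in HY, and a start of Lass2, a ceramide synthase gene, in the Setdb1 window had 15 and 23. The other 6 were distal and belonged to Jmjd1c (3), Kdm4b (2) and Kdm4c (1). The 4 with the highest -log10 q in their weaker library are printed on the plus strand of mm9, each at most 100 bases either side of the summit, with motif matches in capitals, as sequences with a peak at D8 and none at D0 in both genotypes. They are weak peaks: in its weaker library -log10 q was 6.72 at the Kdm4c site, 5.74 and 3.5 at the Jmjd1c sites and 4.25 at the Kdm4b site, and with a limit of 5 in all lists the count of regions open at D8 only fell from 8 to 4.
Kdm4c, 40864 bp before its first TSS (chr4:73847437-73847636, Frmd3 intron): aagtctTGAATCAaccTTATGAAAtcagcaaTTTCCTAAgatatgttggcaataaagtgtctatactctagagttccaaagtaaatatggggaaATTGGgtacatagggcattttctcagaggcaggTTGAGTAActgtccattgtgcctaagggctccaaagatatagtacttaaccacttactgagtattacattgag
Jmjd1c, 8443 bp before its first TSS (chr10:66550336-66550526, Reep3 intron): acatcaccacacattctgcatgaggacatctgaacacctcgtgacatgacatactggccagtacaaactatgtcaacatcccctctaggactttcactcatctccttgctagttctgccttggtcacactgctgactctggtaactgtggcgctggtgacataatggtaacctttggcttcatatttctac
Kdm4b, past the end of the gene (chr17:56547382-56547522, intergenic): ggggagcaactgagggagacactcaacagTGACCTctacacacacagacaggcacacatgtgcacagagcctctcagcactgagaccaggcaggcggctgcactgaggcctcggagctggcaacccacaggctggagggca
Jmjd1c, 3862 bp before an internal TSS (chr10:66676575-66676726, Jmjd1c intron): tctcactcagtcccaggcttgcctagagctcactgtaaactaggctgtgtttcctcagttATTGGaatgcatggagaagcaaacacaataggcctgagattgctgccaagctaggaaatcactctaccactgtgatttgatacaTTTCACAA
The Kdm4c site reached 9 tags in WT and 11 in HY and held TTNCNNAA at 3 places, 1 TGANTCA and 1 CCAAT. The Jmjd1c sites had 11 and 9 (no match) and 7 and 6 (1 TTNCNNAA and 1 CCAAT), and the Kdm4b site 11 and 13 (1 AGGTCA). A further Jmjd1c site, 43467 bp before its first TSS in a Reep3 intron (chr10:66515240-66515552), had 9 and 12, and a Kdm4b intron site at chr17:56540446-56540655 had 12 and 9. HY and WT differed by ratios of 0.806 to 1.43 over the 6, each with an interval that holds 1. Around the summits (100 bases either side) TTNCNNAA was in 5 of the 8 regions and in 36.1% of all 100600 regions with a full window, and in 6 of the 18 regions open at D0 only. TGANTCA was in 1 of 8 and 5 of 18, against 22.0%.

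At D0 only, Kdm4a had a pair of sites in introns of St3gal3, with pileups of 20 and 24 (chr4:117775842-117776328) and of 17 and 17 (chr4:117781477-117781813) in WT and HY. No D8 library had a peak there. Another Kdm4a site, in a Ptprf intron, had 11 and 12. Kdm3a had 1 such site, in its own intron at chr6:71566387-71566696, with 8 and 11. Ehmt2 had 4, among them a C2 intron site with 23 and 22. Counted over genes, D0-only regions were near 9 of the 10 members, the exception being Kdm4c, and near 65.8% of all protein-coding genes.

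Some distal sites stayed open and changed in strength. Distal here means only outside the promoter windows, and a Kdm3b region with its summit 311 bp past the TSS was among them. Of 16 distal regions near members that were open in all 4 libraries, 2 were at least 1.5 fold lower at D8 in both genotypes (24.5% of 10721 such regions) and 2 at least 1.5 fold higher (8.78%). All 4 belonged to the Jmjd1c window. The more marked of the lower sites overlaps a Jmjd1c exon and is shown on the plus strand of mm9 (chr10:66686782-66686982), with motif matches in capitals.
Jmjd1c site lower at D8: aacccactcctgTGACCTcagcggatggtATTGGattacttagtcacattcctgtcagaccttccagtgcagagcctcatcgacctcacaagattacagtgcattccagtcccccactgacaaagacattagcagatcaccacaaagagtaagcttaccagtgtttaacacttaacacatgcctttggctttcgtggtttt
WT had 37 tags at D0 and 9 at D8, a ratio of 0.302 (0.128 to 0.637), and HY had 33 and 12, a ratio of 0.521 (0.245 to 1.03). Another exonic site, at chr10:66715067-66715588, had 21, 7, 20 and 9. Its ratios were 0.414 (0.149 to 1.01) and 0.644 (0.258 to 1.48), and both intervals hold 1. The higher sites were a Jmjd1c intron region at chr10:66578548-66579377 and an intergenic region past Nrbf2 at chr10:66750601-66751070. The intron region had 22, 33, 25 and 27 and ratios of 1.86 (1.05 to 3.35) and 1.55 (0.864 to 2.78). The region past Nrbf2 had 36, 50, 27 and 44 and ratios of 1.72 (1.1 to 2.72) and 2.33 (1.41 to 3.92). By the authors' fold both higher calls were lost, with ratios of 1.22 in WT and 0.794 in HY at the intron region and of 1.05 and 1.12 past Nrbf2. By that measure 0 of the 16 were higher (3.01% of all) and 3 lower (15.2%), with the lower sites above at 0.389 and 0.508 and at 0.467 and 0.625. These 4 were picked for moving the same way in both genotypes. Of the 16, 5 had ratios on opposite sides of 1 in WT and HY, among them 2 of the 7 in the Jmjd1c window. An example is 0.465 and 1.33 at chr10:66521110-66521547 in a Reep3 intron. The share over all 10721 regions was not computed, so these counts are descriptive.

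**Figure D4:**
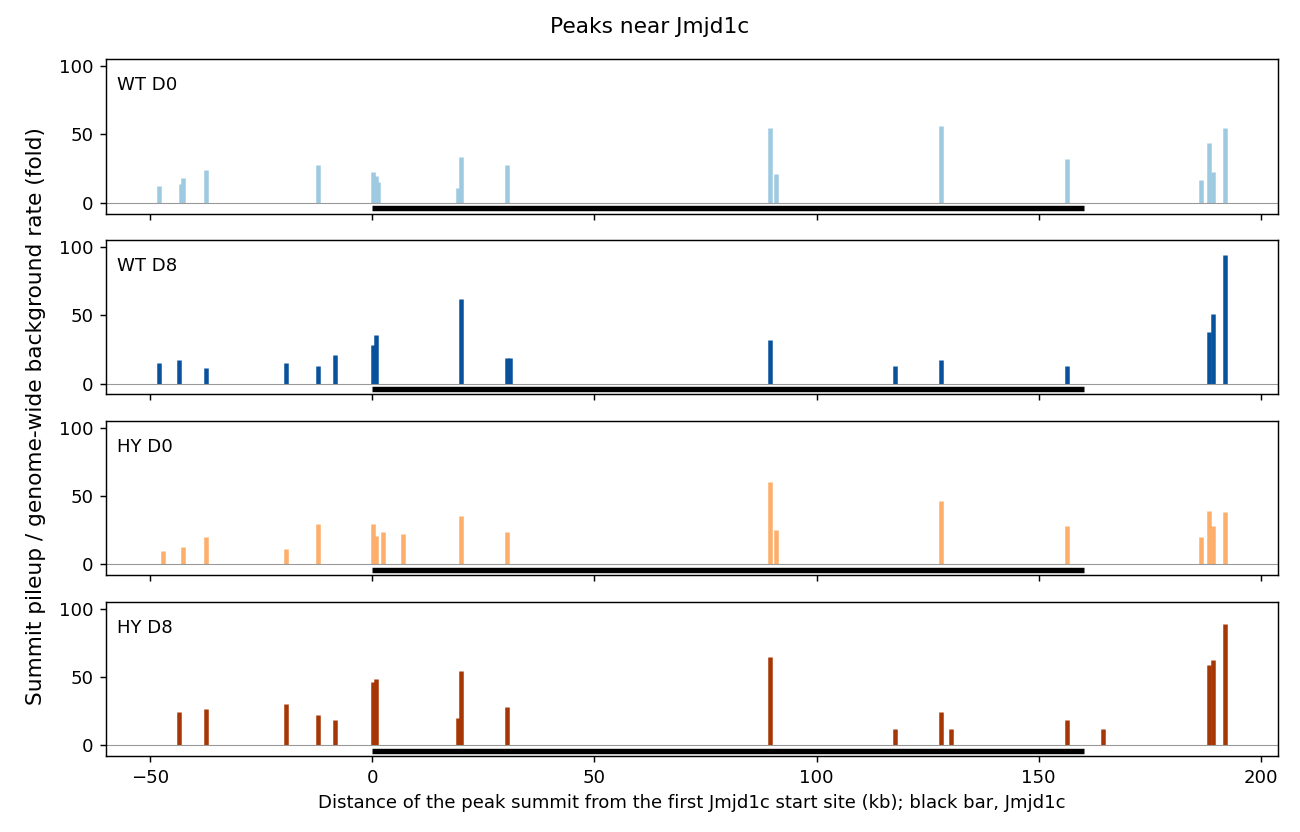
Summit pileup over the genome-wide background rate (vertical axis, fold) of each region in the Jmjd1c window, against distance from the first Jmjd1c TSS (kb), in the 4 libraries, with the gene as a black bar. The internal promoter stands at 54.6 and 32.0 in WT at D0 and D8 and at 60.8 and 64.8 in HY, and the exonic site beyond it is low in both D8 libraries.

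The HY excess at D8 near Jmjd1c was not limited to the internal promoter. Of its 16 regions with a peak in both D8 libraries, 7 were at least 1.5 fold higher in HY and 0 at least 1.5 fold lower, with a median HY/WT ratio of 1.43. Over all regions 11.3% were higher, 3.11% lower, and the median was 1.11. The count fell to 4 of 16 with the median of all regions set to 1 (5.99% of all) and to 4 with the authors' fold (4.34%). At D0, 0 of 15 Jmjd1c regions were higher in HY (10.1% of all), and the median was 1.06, the same as over all regions. The count was made after the pileups had been seen, and the 16 regions share 2 libraries and 1 locus. The highest ratio was in a Reep3 intron, where WT had 6 tags and HY 13 (2.33, interval 0.825 to 7.47). The internal promoter (2.02) came next, and another Reep3 intron site had 8 and 15 tags (2.01, 0.802 to 5.49). The first promoter had 15 and 23 (1.65, 0.823 to 3.39). Among the 16, only the internal promoter had an interval above 1, and that interval holds 1.11, the median of all regions. A peak with 10 tags at chr10:66589863-66589998, at another Jmjd1c start, was called in WT D8 alone and is not among the 16. The strongest region of the window, past Nrbf2, was not higher in HY at D8, with 50 and 44. Over the other 9 members together, 4 of 36 regions were at least 1.5 fold higher in HY at D8, and Kdm3a had 1 of 2, an intergenic site 23149 bp before its TSS with pileups of 9, 7, 7 and 11 (HY/WT at D8 1.69). Among the demethylase genes, Jmjd1c was the one with several regions at least 1.5 fold higher in HY at D8. It also had the most regions to compare, 16 against 9 for Kdm4b, the next, and its start sites span 143 kb. Of those higher regions, the ones at Jmjd1c starts had ratios of 2.02, 1.65 and 1.5, and the others lay in introns of Reep3 and Nrbf2. The spread between cultures was not measured.

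**Figure D5:**
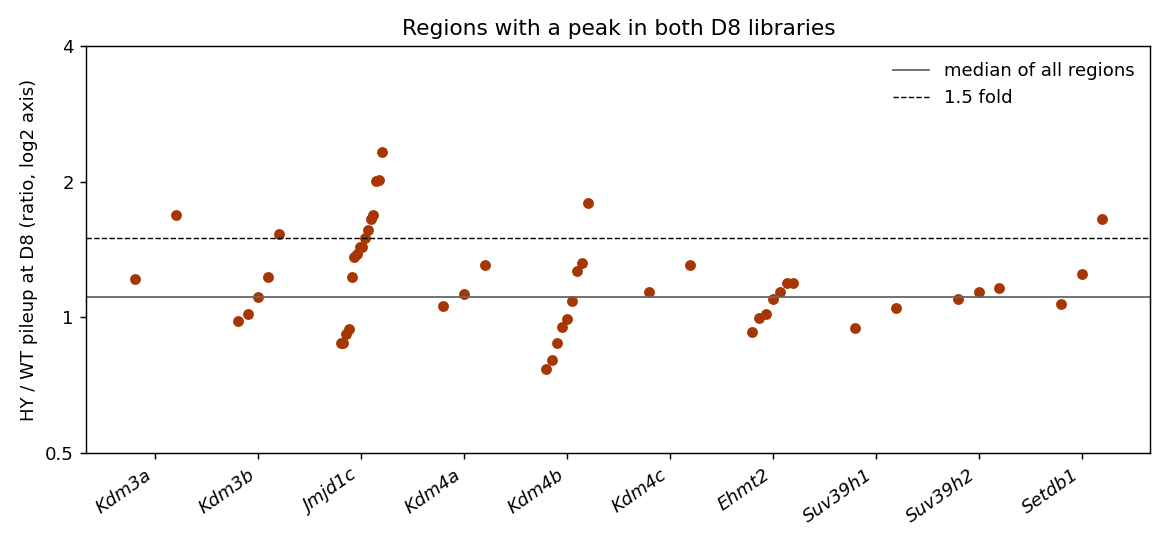
HY/WT ratio of pileups at D8, scaled by relative depth (log2 axis), for each region with a peak in both D8 libraries, by member. The solid line is the median of all regions, 1.11, and the dashed line is 1.5 fold; 7 of 16 Jmjd1c regions lie at or above it.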

How the data were processed

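The 4 ATAC-seq libraries, 1 for each genotype and day by the sample labels, were analysed from 1 deposited narrowPeak list each. According to the study's methods, reads were trimmed, aligned to mm9 and freed of PCR duplicates before peaks were called per library. The submitters' processing notes name Bowtie2, SAMtools, Picard and deepTools. Versions, the calling threshold and any Tn5 offset are not given in the sources used here. The deposited fold column is the ratio of summit pileup to local background, after 1 was added to each. The authors' p-value and q-value columns are on the -log10 scale, and the deposited score column was not used. Pileup and background were solved from fold and -log10 p under the Poisson model of MACS (within 0.002 for 100% of peaks). The study's methods give an approximate read number common to all samples. The tags behind each list are not given in the sources used here, and relative depth at D8 was 0.806 of D0 in WT and 0.698 in HY, and that of HY was 1.07 of WT at D0 and 0.931 at D8.

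Genes were taken from the GENCODE annotation of NCBIM37. A summit within 50 kb of any TSS assigned a peak to a member. Promoter ratios used the highest promoter pileup of a gene, scaled by relative depth, with exact binomial intervals, and were called at 1.5 fold. A peak was specific when no peak of the other list covered 50% of it, and lists were merged at 1 shared bp, with each region at its full extent. The intervals for the ratio of day effects used the normal approximation on the log scale. By plan, named sites were those open at D8 only in both genotypes or in both lists of 1 genotype, promoters of other genes apart, up to 3 per member. The sites named for Jmjd1c exceed this limit, and the Cfb and Lass2 promoters are named as well. Sites named for a change in strength or for D0 only were picked after their values were seen. Of 20 pathway genes, those past 1.5 fold in 1 direction in both genotypes or on both days were to be named. The members and lists were chosen with earlier results of these data known. Solver and ratios were tested on simulated data. Alternatives covered overlap, q threshold, list length, distance, promoter window, scaling and fold (Python 3, numpy, pandas and scipy).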

Additional observations from a re-analysis of the deposited data

Results flagged for a closer look

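At 6 of 9 promoters the D8/D0 ratio lay on opposite sides of 1 in WT and HY, which was not tested since each group has 1 library. The medians over all promoters, 0.983 in WT and 1.03 in HY, also lay on opposite sides of 1. The share of all promoters with such a split was not computed. The ratio of the day effects, HY over WT, was 1.04 for Kdm3a, 1.82 for Jmjd1c, 0.92 for Kdm4a, 1.1 for Ehmt2, 1.11 for Suv39h1 and 1.12 for Suv39h2. At 4 of 9 the HY/WT ratio lay on opposite sides of 1 at D0 and D8, likewise untested: Ehmt2 and Suv39h1 again, with Kdm4b (1.11) and Setdb1 (1.43). Over all promoters the median of this ratio was 1.05 and the 5th to 95th percentiles ran from 0.661 to 1.59, so of the 8 only the value for Jmjd1c lies outside the range of most promoters, and its interval (0.871 to 3.8) holds 1.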

How the results depend on the processing

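With 1 library per group no replicate could be left out, and no paired analysis of replicates was possible. Of 167 recomputed counts, 95 stayed within 1.5 times the main count, and the 108 recomputed single promoter ratios all stayed within their intervals with no called ratio changing direction. Counts in the order WT D0, WT D8, HY D0 and HY D8: peaks near members were 31, 27, 32 and 26 at 10 kb and 146, 131, 156 and 117 at 100 kb, 47 in WT D8 with -log10 q of at least 5, and 50 in WT D0 and 51 in HY D0 with lists of equal length. Differentiation-specific peaks in WT and HY were 43 and 32 when 50% of both peaks had to overlap, 8 and 9 with -log10 q of at least 5 in both lists, 7 and 7 with that limit on the query alone, 6 and 5 at 10 kb and 32 and 24 at 100 kb. Preadipocyte-specific peaks were 24 and 22 with lists of equal length, 15 and 14 at 10 kb, 88 and 99 at 100 kb, and 28 in WT with 1 shared bp. HY-specific peaks at D0 were 17 with the q limit in both lists, 14 with it on the query, 9 with lists of equal length, 7 at 10 kb and 48 at 100 kb; at D8 they were 8 with 1 shared bp, 5 at 10 kb and 30 at 100 kb. WT-specific peaks at D0 and D8 were 21 and 28 with 50% of both, 6 and 3 with the q limit in both, 5 and 2 with it on the query, 5 and 4 at 10 kb and 25 and 25 at 100 kb, and 4 at D0 with lists of equal length. Regions open in all libraries were 19 at 10 kb and 74 at 100 kb, those at D8 only 4 with the q limit and 3 at 10 kb, and those at D0 only 7 with lists of equal length, 5 at 10 kb and 34 at 100 kb. Regions open in both HY libraries alone were 1 with lists of equal length, and in both WT libraries alone 0 with the q limit and 0 at 10 kb. Members lower at D8 in WT were 0 with the authors' fold and 0 at 2 fold, and members past the threshold in the ratio of day effects were 0 under both. Jmjd1c remained the 1 member higher in HY at D8 when scaling, window or fold was changed alone. Its ratio was 1.82 with the median set to 1, 1.81 with the wider promoter window and 1.52 with the authors' fold, all under 2 fold. Jmjd1c regions higher in HY at D8 were 4, in place of 7, with the median of all regions set to 1 and 4 with the authors' fold, and distal regions open in all libraries and higher at D8 were 0, in place of 2, with the authors' fold, all chosen after seeing the data. Pathway genes higher at D8 in WT were 1 with the authors' fold and 0 at 2 fold, and in HY 0 with the median ratio set to 1, 0 with the authors' fold and 0 at 2 fold. Those lower in HY were 0 at 2 fold, those higher in HY at D0 1 at 2 fold, and those lower in HY at D8 1 with the median set to 1. The changes at other distances, limits and folds follow from fewer or more peaks or a stricter threshold, and the cause of the others was not tested.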
